A study of Mus musculus with 8 samples.

Results

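Among single cells of the embryonic mouse forelimb, 439 cells of the E16.5 proximal library carried transcripts of at least 3 of 5 genes, *Entpd2*, *Alx1*, *Vtn*, *5330417C22Rik* and *Coch*, and are described here as members. They were chosen from the cells with at least 3000 unique molecular identifiers (UMIs, each marking a captured transcript) and at most 10% mitochondrial UMIs by having 1 or more UMIs in at least 3 of the 5 genes. Members made up 3.95% (exact binomial 95% interval 3.60 to 4.33%) of the 11109 filtered cells of that library, and the whole series held 53085 such cells in 8 droplet libraries. All libraries came from C57BL/6J forelimbs. The 6 libraries of sorted tdTomato+ cells were labelled Hic1 CreERT2/CreERT2 with a Rosa26 LSL tdTomato/tdTomato reporter, and 7.5 mg of tamoxifen at embryonic day 10 made the reporter permanent in cells that expressed *Hic1* then and in their descendants. These cells were taken daily from E11.5 to E14.5 and again at E16.5, where the proximal library held the distal stylopod, the proximal zeugopod and the elbow and the distal library held the distal zeugopod and autopod. The other 2 libraries held tdTomato+ and tdTomato- cells of whole E11.5 limbs of this cross, whose labels do not say how many *Hic1* copies carried the Cre. In the sorted libraries both copies of *Hic1* carried it, so none had an unmodified *Hic1* locus. The proximal library pooled 6 forelimb segments, cells with blood and endothelial surface markers were left out of the sort, and there was 1 library per segment, so no test was possible and all intervals cover counting error only. The genes that chose the members, and every gene measured in the same cells, are given as a description.

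Connective tissue fibroblasts between muscle fibres build the collagen and laminin scaffold on which fibres and nerves grow, and in the limb they arise beside the tendon, skin and cartilage lineages. They are told from neighbouring fibroblasts by combinations of genes and not by a single marker. Among the genes used here, *Entpd2* encodes an enzyme on the cell surface that cleaves extracellular ATP, *Alx1* a homeodomain transcription factor of mesenchyme, *Vtn* vitronectin, an adhesive glycoprotein that binds integrins and the plasminogen activator inhibitor PAI-1, and *Coch* cochlin, a secreted matrix protein best known from the inner ear. The position of a cell in the tissue was lost when the forelimbs were dissociated, so that a place between muscle fibres was not measured.

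In the GRCm38 build the genes lie at chr2:25395874-25401321 on the plus strand (*Entpd2*, ENSMUSG00000015085), chr10:102998707-103030215 on the minus strand (*Alx1*, ENSMUSG00000036602), chr11:78499091-78502324 on the plus strand (*Vtn*, ENSMUSG00000017344), chr3:108455694-108536536 on the minus strand (*5330417C22Rik*, ENSMUSG00000040412) and chr12:51593341-51605771 on the plus strand (*Coch*, ENSMUSG00000020953). Promoter entries from RefSeq (GRCm38.p6) were held for 3 of the 5 genes, and the 250 bases before the RefSeq start of *Entpd2* (chr2:25395624-25395873, plus strand) and of *Vtn* (chr11:78498870-78499119, plus strand) are shown because these genes tended to be found in the same cells and because *Tcf15*, a basic helix-loop-helix factor, was among the genes higher in members. The RefSeq start of *Vtn* lies downstream of the gene start given above, which is from GENCODE, and distances are from the RefSeq start. Capitals mark CANNTG, the E-box letters that factors of this class recognise, searched on both strands.
Entpd2: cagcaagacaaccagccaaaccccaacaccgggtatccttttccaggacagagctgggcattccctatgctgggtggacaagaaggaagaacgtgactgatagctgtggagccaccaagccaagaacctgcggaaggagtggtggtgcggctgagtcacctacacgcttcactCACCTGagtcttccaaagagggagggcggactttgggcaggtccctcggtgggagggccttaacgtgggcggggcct
Vtn: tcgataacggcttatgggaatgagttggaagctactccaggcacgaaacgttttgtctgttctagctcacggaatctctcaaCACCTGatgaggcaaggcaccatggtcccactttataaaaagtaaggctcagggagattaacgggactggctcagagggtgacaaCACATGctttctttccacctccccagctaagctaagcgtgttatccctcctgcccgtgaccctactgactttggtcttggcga
CACCTG, a form of CANNTG, stood 77 to 72 bases before the start of *Entpd2* and 168 to 163 bases before that of *Vtn*, which also held CACATG at 83 to 78 bases. CANNTG was present in 66.2% of 32851 promoters of the same length and CACCTG in 17.2%. The promoter of *Coch* held neither, and its GC content of 74.8% compared with 59.2% for *Entpd2*, 50.4% for *Vtn* and a median of 52.4%. A match is a description of the letters and not of a bound site.

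*Entpd2* was the rule gene found in most members, and it was also the most frequent of the 5 in the other cells. It was detected in 418 members (95.2%), *5330417C22Rik* in 346 (78.8%), *Coch* in 312 (71.1%), *Vtn* in 162 (36.9%) and *Alx1* in 124 (28.2%). In the same order the shares of the other cells were 27.1%, 5.19%, 11%, 3.86% and 7.03%, and the rule itself sets members above them. The most frequent combination was *Entpd2* with *5330417C22Rik* and *Coch* (159 members, 36.2%), followed by *Entpd2* with *Vtn* and *5330417C22Rik* (74), *Entpd2* with *Vtn* and *Coch* (49), *Entpd2* with *Alx1* and *5330417C22Rik* (48) and *Entpd2* with *Alx1* and *Coch* (42). No cell held all 5 genes and 45 held 4. Of all filtered cells, 6292 had none of the genes, 2975 had 1, 1403 had 2 and 394 had 3. Many detections rested on a single UMI, which was all there was in 28.7% of the members with *Entpd2*, 36.3% of those with *Alx1*, 36.4% of those with *Vtn*, 52.6% of those with *Coch* and 65.3% of those with *5330417C22Rik*.

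A rule on detected genes favours deeply sequenced cells. Members held a median of 21837 UMIs (7576 to 131775) against 18350 in the other 10670 cells, and 1.92% against 1.96% mitochondrial UMIs. When every cell was thinned to 3000 UMIs, 14 cells (0.126%) kept 3 of the genes and 230 (2.07%, 1.81 to 2.35%) kept 2 or more. At that depth *Entpd2* was still detected in 29.2% of members (24.9 to 33.7%) and 8.24% of the other cells, *5330417C22Rik* in 17.1% and 1.12%, *Coch* in 15.9% and 3.23%, *Vtn* in 12.3% and 1.59%, and *Alx1* in 9.57% and 2.90%. Free RNA in the droplets sets a floor for such shares, which was read from 583 cells with keratinocyte markers (median 30578 UMIs before thinning). These cells were deeper than the other cells, so free RNA may be a smaller part of their UMIs and the floor may be too low. There the thinned shares were 1.37% for *Entpd2*, 0.515% for *Vtn*, 0.172% for *Alx1* and for *Coch*, and 0 of 583 for *5330417C22Rik*, which allows up to 0.631%. The other cells, which the rule did not pick, were above these shares for each gene, and for the members the rule fixes this. Members near the threshold were alike in depth to those above it, with a median of 21828 UMIs at exactly 3 genes, 22290 at 4 and 20780 in the cells with 2 that missed the rule.

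The 5 genes did not appear together over development. Levels are given as CPM, UMIs of a gene scaled to the same total of UMIs in each library or group. *Alx1* was present from the earliest stage, at 7.65 CPM in the sorted E11.5 library, followed by 26.5, 32.9 and 11.4 CPM on the next days, 12.9 in the proximal and 3.53 in the distal library at E16.5, and at 7.80 and 9.16 in the whole limbs. *Entpd2* had 0 UMIs in the sorted E11.5 library (up to 0.117 CPM) and then stood at 0.0226, 0.0881 and 1.10 CPM on the next days. It was at 38.2 and 8.95 CPM in the proximal and distal E16.5 libraries and at 0.039 and 0.0195 in the whole limbs. *Vtn* had no UMI in the sorted libraries up to E13.5, with 1.13 CPM at E14.5, 8.24 in the proximal and 0.998 in the distal library. *5330417C22Rik* stayed at or under 0.249 CPM up to E13.5 and reached 1.67 at E14.5, 6.59 proximally and 1.17 distally. *Coch* was at 0.254, 0.475, 1.48 and 2.53 CPM from E11.5 to E14.5 and at 14.4 proximally and 19.8 distally, the only gene of the 5 with a higher level in the distal library. The reagent kit changed from v2 to v3 after E13.5, so stage and chemistry cannot be told apart across that step. E14.5 and E16.5 share the v3 kit.

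**Figure D1:**
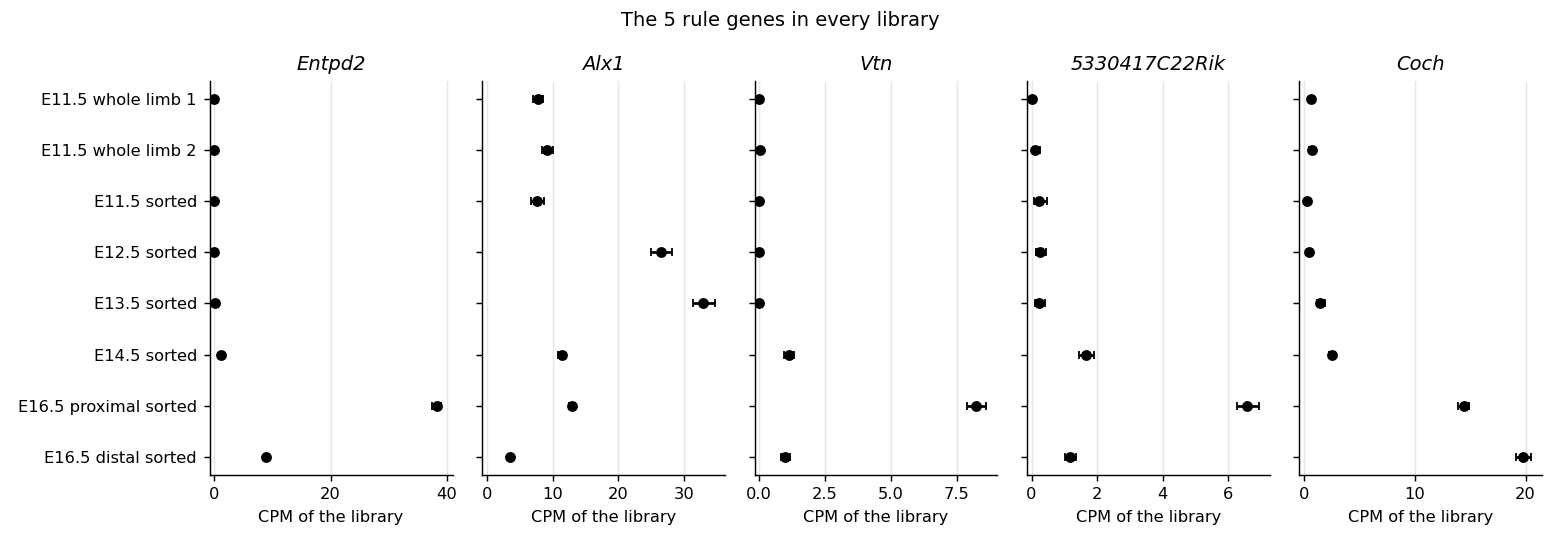
Level of each of the 5 genes (columns, CPM of all filtered cells) in every library (rows), with exact Poisson 95% intervals as bars. *Alx1* is highest at E12.5 and E13.5 (26.5 and 32.9 CPM), whereas the other 4 genes are at or under 2.53 CPM up to E14.5 and highest in an E16.5 library.

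The same rule found 44 of 8447 cells in the E16.5 distal library (0.521%, 0.379 to 0.699%) and 9 of 8381 at E14.5 (0.107%, 0.0491 to 0.204%). It found none of 3165, 4714 and 6123 cells in the sorted libraries of the first 3 days and none of 5464 and 5682 cells of the whole limbs, with exact upper limits of 0.0602 to 0.116%. The median depth of these earlier libraries, 6788 to 8992 UMIs, was below that of the E16.5 libraries. The proximal and distal E16.5 libraries shared 30 cell barcodes, and no pair of libraries shared more than 48.

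In the counts as deposited, 4 of the 5 genes were found more often in cells with the other rule genes than in the rest, and *Alx1* was not. Among cells with at least 3 of the other 4 genes, *Entpd2* was detected in 45 of 66 (68.2%, 55.6 to 79.1%) against 29.5% of the rest, *5330417C22Rik* in 44 of 137 (32.1%, 24.4 to 40.6%) against 7.80%, *Coch* in 43 of 170 (25.3%, 19.0 to 32.5%) against 13.2%, and *Vtn* in 30 of 307 (9.77%, 6.69 to 13.7%) against 5.04%. *Alx1* was detected in 18 of 333 (5.41%, 3.23 to 8.41%) against 7.94%, so that these intervals overlap. Depth can lift all such shares. With only 2 of the other genes required, *Alx1* was detected in 7.99% (6.69 to 9.45%) against 7.85% in the deposited counts, and after thinning it had a UMI in 0 of 192 cells (up to 1.9%) against 3.22% of the rest (2.89 to 3.56%). The thinned share was 14 of 63 (22.2%, 12.7 to 34.5%) against 8.99% for *Entpd2*, 12 of 170 (7.06%, 3.7 to 12%) against 1.66% for *5330417C22Rik* and 9 of 173 (5.2%, 2.41 to 9.65%) against 1.97% for *Vtn*. For *Coch* the deposited shares were 27.7% and 11.8%, and the thinned shares were not apart, with 7 of 120 (5.83%, 2.38 to 11.6%) against 3.71% (3.37 to 4.08%). The distal library differed for *Alx1*, which was detected in 17 of 242 cells with at least 2 of the other genes (7.02%, 4.15 to 11%) against 2.58% of the rest in the deposited counts, and in 1 of 32 thinned cells.

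*Alx1* and *Vtn* were rarely found in the same cell. *Vtn* was detected in 15 of 874 cells with *Alx1* (1.72%, 0.964 to 2.81%) and in 5.46% (5.03 to 5.92%) of the cells without it. In thinned cells the shares were 2 of 351 (0.570%, 0.0691 to 2.04%) and 2.06% (1.80 to 2.35%), and these intervals overlap. The distal library held 229 cells with *Alx1* and 68 with *Vtn* and E14.5 held 487 and 48, and in neither did a cell hold both. With so few *Vtn* cells these 0 counts do not set the 2 genes apart. *Vtn* was in 0.805% of all distal cells. At E14.5 it was in 0 of 487 cells with *Alx1* (up to 0.755%) and 0.608% (0.449 to 0.805%) of those without. Thinned cells with *Alx1* also held *Entpd2* less often (15 of 351, 4.27%, 2.41 to 6.95%) than those without it (9.22%, 8.68 to 9.78%), but in the deposited counts the shares were not apart (31%, 28 to 34.2%, against 29.7%). In the distal library *Entpd2* was found in 17.5% (12.8 to 23%) of cells with *Alx1* against 7.39% in the deposited counts, and thinned in 3 of 62 (4.84%, 1.01 to 13.5%) against 1.93%. With *5330417C22Rik* it was the deposited counts that differed, in 15.3% (13 to 17.9%) of cells with *Alx1* against 7.48%, and the thinned shares of 2.56% (1.18 to 4.81%) and 1.72% were not apart. In contrast, thinned cells with *Vtn* held *Entpd2* in 20.5% (15.4 to 26.4%) against 8.83% and *5330417C22Rik* in 8.04% (4.83 to 12.4%) against 1.62%. Only 6 of the 439 members carried both *Alx1* and *Vtn*. The members are therefore called by their rule and are not treated as a single cell type.

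After thinning, 99.8% of members held at least 3 of 8 general fibroblast markers against 89.4% of the other cells, 77.9% of chondrocyte cells and 18.4% of keratinocyte cells. The share separates few classes, since the list holds abundant collagens, and the summed level of these markers was lower, at 13711 against 17911 CPM (fold 0.766, 0.762 to 0.769). Of the 8 markers 7 had intervals below 1, *Dpt* was at least 2-fold lower and the median log2 ratio was -0.17. *Pdgfra*, the receptor that marks mesenchymal fibroblasts, was the exception at 185 CPM against 126. Markers of 9 other classes were lower in sum in members than in the other cells, with chondrocyte markers at 445 against 3228 CPM, keratinocyte 403 against 3597, tenocyte 284 against 691, dermal fibroblast 350 against 598, pericyte 111 against 189, perineurial 42.1 against 97.2, osteogenic 2.76 against 19.6, Schwann cell 7.18 against 19.8 and erythroid 0.553 against 98.0. Pi16 fibroblast markers (111 against 229 CPM, fold 0.485) and Sfrp4 fibroblast markers (73.1 against 89.9, fold 0.813) were lower in sum as well. Immune markers were at 0.829 against 1.12 CPM (fold 0.737, 0.333 to 1.42). Against cells with Pi16 or Sfrp4 fibroblast markers the chondrocyte sum of members was near 1-fold (1.08 and 0.981), and the keratinocyte sum was 0.248 and 1.06 times theirs. Endothelial markers were at 11.8 CPM in both. Adipogenic markers (261 against 189 CPM, fold 1.38, 1.33 to 1.44, with a median log2 ratio of -0.37 over 4 genes), myogenic markers (10.3 against 4.59) and muscle fibre genes were higher in sum in members. *Scx*, which drives tendon fate, was at 9.49 against 51.5 CPM and *Sox10* of Schwann cells at 0.276 against 0.397. Of 6 tenocyte markers at 10 CPM or more 4 were at least 2-fold lower (*Scx*, *Tnmd*, *Htra3*, *Fmod*) and 0 higher. Their intervals lay below 1 for 5 and above 1 for 1. Of all genes at that level 5.2% were called lower and 0.999% higher. At least 3 markers were found after thinning in 1.37% of members for cartilage, 1.14% for keratinocytes, 0.683% for tendon and 1.82% for dermis, against 10.6%, 5.46%, 10.6% and 10.3% of the other cells. In the counts as deposited 81 members held at least 3 tenocyte, 149 at least 3 dermal and 71 at least 3 pericyte markers, which is 18.5%, 33.9% and 16.2% of members and 2.62%, 3.99% and 5.94% of those classes. Over all filtered cells of the library the shares were 27.8%, 33.6% and 10.8%, so that by this count members were below the library for tendon, near it for dermis and above it for pericyte markers.

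**Figure D2:**
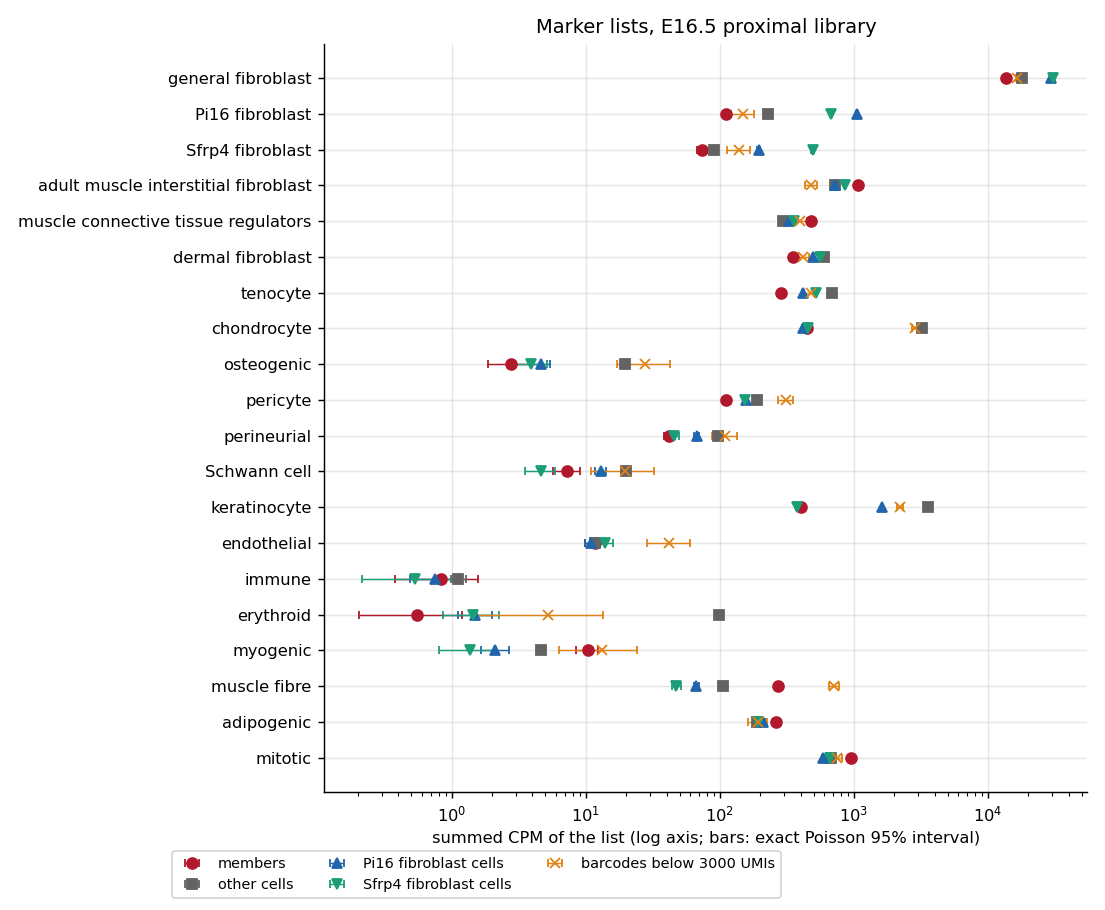
Summed CPM of each marker list (rows, log axis) in members, the other filtered cells, cells with at least 3 Pi16 or Sfrp4 fibroblast markers, and barcodes below 3000 UMIs, all from the E16.5 proximal library, with exact Poisson 95% intervals. Members lie below the other cells for cartilage (445 and 3228 CPM) and keratinocyte lists (403 and 3597 CPM) and above them for the muscle fibre list (273 and 105 CPM), where barcodes below 3000 UMIs are highest (709 CPM).

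The markers of adult muscle interstitial fibroblasts summed to 1066 CPM in members and 724 in the other cells, and *Smoc2* alone made up 608 and 293 of these. Counting genes at 10 CPM or more in either group, 2 of 8 were at least 2-fold higher (*Smoc2*, *G0s2*) and 0 lower, 5 had intervals above and 3 below 1, and the median log2 ratio was 0.14, beside 0.999% of all 8208 genes called higher, 5.2% called lower and a median of 0.02. In the distal library, where they summed to 963 against 778 CPM, 2 of 10 were higher (*Smoc2*, *Hsd11b1*) and 3 lower (*Mme*, *Cxcl14*, *Gdf10*), with a median of 0.01, beside 2.7% of all 8533 genes at 10 CPM or more called higher and 5.59% lower. All such ratios are of CPM + 1. Of 6 regulators of muscle connective tissue none passed 2-fold on that scale, 4 had an interval above 1 and 0 below. *Tcf7l2*, a Wnt-responsive factor used as a marker of this tissue, was at 280 against 144 CPM, *Osr2* at 55.0 against 39.4, *Osr1* at 52.2 against 46.5, *Tbx3* at 25.1 against 24.7 and *Tbx5* at 20.2 against 20.6. *Hic1*, the repressor gene that the reporter traces, was at 42.4 CPM in members and 21.0 in the other cells (fold 2.01, 1.83 to 2.22), and 12.3% of thinned members (9.38 to 15.7%) held a *Hic1* UMI against 5.67% (5.24 to 6.13%). tdTomato was detected in 95.4% of thinned members and 94.8% of the other cells. In the distal library *Hic1* was at 58.5 against 27.6 CPM, but the thinned shares were not apart, with 4 of 44 members (9.09%, 2.53 to 21.7%) against 7.46%.

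At 50 CPM or more in the higher group, and leaving out the rule genes, haemoglobin, mitochondrial, sex-linked and added sequences, 24 of 3040 genes (0.789%) were at least 2-fold higher in members and 123 (4.05%) at least 2-fold lower. The 20 genes with the largest ratios, leaving out the 5 rule genes and muscle fibre genes, are described as signalling, matrix, and metabolic or membrane genes. This grouping follows no fixed list and was not tested. *Nppc*, which encodes C-type natriuretic peptide, led them at 148 CPM in members and 43.3 in the other cells (fold 3.41, exact 95% interval 3.24 to 3.60). It was uneven among members, with a median of 1 UMI, up to 45 UMIs in a cell and 52.8% of its UMIs in the 10% of members richest in it. *Tcf15*, whose protein paraxis patterns somites, was at 50.3 against 16.2 CPM (3.10, 2.82 to 3.39). Among receptors, *Ngfr*, the low-affinity neurotrophin receptor, was at 110 against 38.9 CPM (2.83, 2.67 to 3.01) and *Cntfr*, which binds ciliary neurotrophic factor, at 171 against 63.7 (2.68, 2.55 to 2.81). A *Cntfr* UMI was found in 96.1% of members and 49.5% of the other cells, and after thinning in 39.4% and 17%. *Socs3*, an inhibitor of cytokine receptor signalling that CNTF-type cytokines induce, was at 198 against 82.6 CPM and *Ebf2*, a transcription factor of mesenchyme and brown fat precursors, at 123 against 57.8.

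Secreted and matrix genes formed the most abundant set. *Smoc2*, a calcium-binding matricellular protein, was at 608 against 293 CPM, with a median of 12 UMIs per member and 3 per other cell. *Serpine2*, protease nexin-1, an inhibitor of thrombin and plasminogen activators, was at 455 against 179 CPM (median 10 and 2 UMIs). *Sparcl1* was at 331 against 147 CPM, the basement membrane protein gene *Nid2* at 176 against 78.3 and *Lpl*, lipoprotein lipase, at 122 against 52.4. A UMI of each of *Smoc2*, *Serpine2*, *Sparcl1* and *Nid2* was found in 94.3 to 98.9% of members and in 54.4 to 72.8% of the other cells in the deposited counts, which are deeper in members. The set, whose genes are all higher by its choice, held enzymes of the retinoic acid pathway. These were *Rdh10*, which oxidises retinol, at 68.4 against 31.2 CPM and *Aldh1a3*, which makes retinoic acid from retinal, at 54.8 against 22.1. The remaining genes were *Ly6h* (244 against 89.1 CPM), *Bst2*, the antiviral membrane protein tetherin (123 against 46.6), *Ly6e* (124 against 56.7), the cell adhesion gene *Ntm* (191 against 84.3), *Phactr2* (332 against 139), *Sult1a1*, a sulfotransferase (77.0 against 30.4), and *Iqgap2* (76.5 against 36.8). These genes are not independent of the rule, since they were measured in the cells that it picked.

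**Figure D3:**
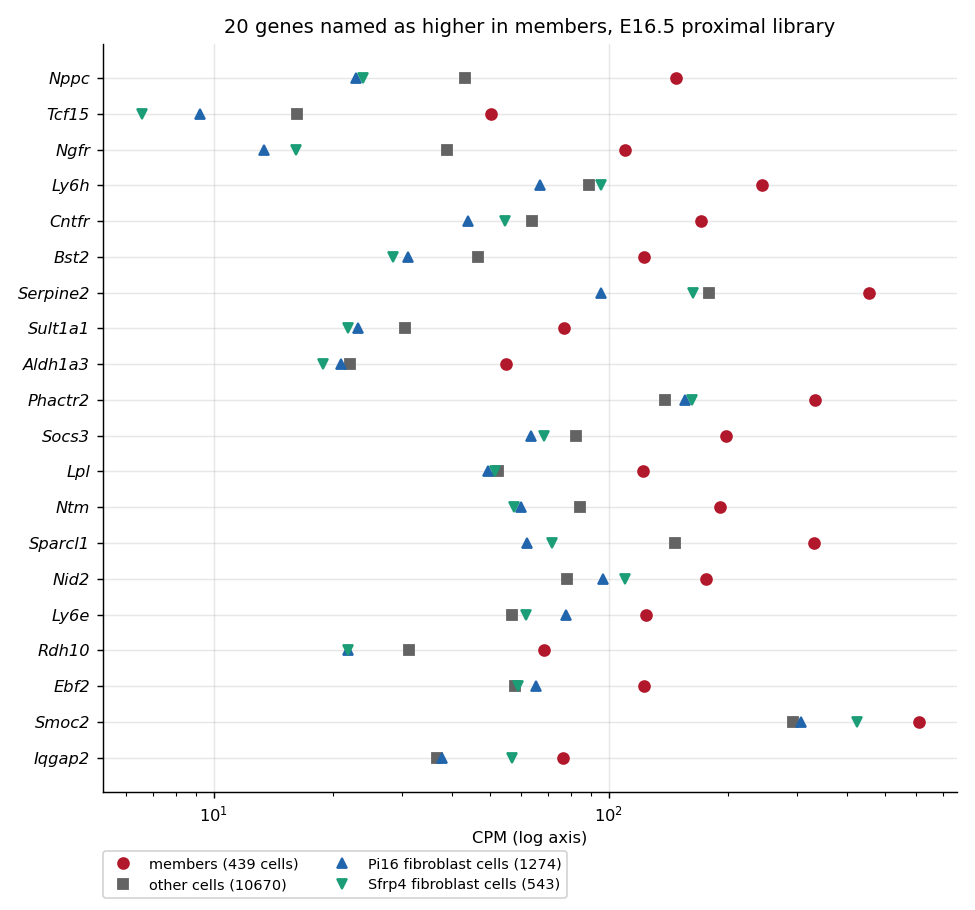
CPM (log axis) of the 20 genes named as higher in 439 members, 10670 other cells, 1274 cells with Pi16 fibroblast markers and 543 with Sfrp4 fibroblast markers, E16.5 proximal library. Members are the rightmost point for each gene, from 50.3 CPM (*Tcf15*) to 608 CPM (*Smoc2*).

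All 20 genes were at least 2-fold higher when the other cells were weighted to the depth of the members, and 14 when keratinocyte and chondrocyte cells were left out of the comparison.

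The 10 genes with the lowest ratios were led by products of skin keratinocytes, *Serpinb2* (23.3 against 441 CPM), *Lgals3* (25.4 against 456), *Lgals7* (85.4 against 1455), *Stfa3* (28.0 against 403), *Sprr1a* (35.6 against 509) and *Ly6d* (51.1 against 710). *Them5*, *Rab25* and *Npl* were at 6.91, 10.2 and 4.61 against 99.6, 126 and 71.7 CPM. The richest 10% of members held 90.2 to 100% of the UMIs of each of the 10. *Cytl1*, a secreted protein of cartilage, was at 3.68 against 61.2 CPM, but its log2 ratio of -3.73 became 0.84 when keratinocyte and chondrocyte cells were left out of the other cells. The other 9 remained at least 2-fold lower in that comparison.

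Interstitial collagens were split between higher and lower levels, while most basement membrane genes were higher by less than 2-fold. *Col1a1* and *Col1a2*, the chains of type I collagen, were at 3425 against 5697 and 2750 against 3957 CPM. Type VI collagen, the beaded filament network around muscle fibres, was higher in the 4 chains at 10 CPM or more, with *Col6a1* at 1380 against 921, *Col6a2* at 835 against 561, *Col6a3* at 997 against 580 and *Col6a6* at 115 against 62.9 CPM. Over 17 interstitial collagens at 10 CPM or more, 0 were 2-fold higher and 1 lower (*Col25a1*), 8 intervals lay above and 7 below 1, and the median log2 ratio was 0.05. Basement membrane genes summed to 1915 against 1241 CPM (fold 1.54, 1.52 to 1.57). Of 12 such genes, 1 was 2-fold higher (*Nid2*), 0 were lower, 10 had intervals above 1 and 1 below, with a median log2 ratio of 0.53. Type IV collagen *Col4a1* was at 532 against 308 CPM, laminin chains *Lamb1* at 183 against 101 and *Lama2*, the chain of muscle laminin, at 53.9 against 31.2, and *Lamb2* at 25.8 against 32.6. Over all genes at 10 CPM or more 0.999% were called higher and 5.2% lower. Among 38 proteoglycan and matricellular genes, 3 were 2-fold higher (*Sparcl1*, *Smoc1*, *Smoc2*) and 5 lower (*Fmod*, *Tnc*, *Spon2*, *Eln*, *Ctgf*), with a median of -0.05. Elastin was at 67.8 against 176 CPM and the large proteoglycan *Vcan* at 743 against 376.

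Of the enzymes that process extracellular purines, *Entpd1* and *Nt5e* lay on opposite sides. *Entpd1*, the close relative of *Entpd2* that cleaves ATP and ADP to AMP, was at 13.1 CPM in members and 5.12 in the other cells (fold 2.56, 2.13 to 3.05). Other ectoenzymes and relatives on the list were closer, with *Entpd5* at 7.37 against 8.40, *Entpd6* at 14.6 against 12.7 and *Enpp1* at 8.01 against 6.85 CPM. *Nt5e* (CD73), the next enzyme, which makes adenosine from AMP, was at 3.78 against 25.4 CPM (0.149, 0.107 to 0.202). The adenosine receptor *Adora2b* was at 41.3 against 18.3 CPM and the nucleoside transporter *Slc29a1* at 118 against 62.3. The distal library gave the same directions for *Entpd1* (24.2 against 4.54), *Nt5e* (5.46 against 44.2), *Adora2b* (25 against 9.67) and *Slc29a1* (88.9 against 43.0 CPM). Over the 8 purine genes at 10 CPM or more, 2 were 2-fold higher, 1 was lower and the median log2 ratio was 0.31. This stood beside 0.999% of all genes at that level called higher, 5.2% called lower and a median of 0.02. All 19 listed genes summed to 256 against 187 CPM. In the distal library 3 of 9 were 2-fold higher and 2 lower (*Nt5e*, *Enpp2*), beside 2.7% and 5.59% of all genes. The distal sums, 228 against 207 CPM, were not apart (fold 1.1, 0.98 to 1.24).

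Of the genes that act with vitronectin, 1 of 7 (*Serpine2*) was 2-fold higher and 0 lower, with a median log2 ratio of -0.06. Of all genes at 10 CPM or more 0.999% were called higher and 5.2% lower, with a median of 0.02. The integrin chains that bind vitronectin were slightly lower, with *Itgav* at 26.2 against 30.4 CPM and *Itgb5* at 54.7 against 64.5. The plasminogen activator *Plat* was at 78.0 against 40.9 CPM and *Plaur*, the urokinase receptor, at 7.28 against 14.1 (fold 0.517, 0.408 to 0.646).

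Among 19 growth factors and binding proteins for muscle and nerve, 0 were 2-fold higher, 3 were lower (*Igfbp7*, *Pdgfa*, *Figf*), 10 had intervals above 1 and 5 below, with a median log2 ratio of 0.12. *Igf1*, which drives growth of muscle fibres, was at 1150 against 585 CPM (fold 1.97, 1.93 to 2.00), *Mdk* at 1021 against 732, and the neurotrophin *Ntf3* at 26.4 against 19.0. *Il33*, an alarmin cytokine of stromal cells, was the single 2-fold higher gene of 8 chemokine and complement genes, at 44.5 against 21.5 CPM, 0 were lower and the median was 0.09. The chemokine *Cxcl12* was at 288 against 171 CPM. Wnt ligands and modulators leaned to lower levels, with 7 of 14 at least 2-fold lower, 0 higher and a median of -0.88, beside 5.2% lower, 0.999% higher and a median of 0.02 over all genes at 10 CPM or more. *Wif1*, a secreted Wnt inhibitor, was at 5.07 against 64.6 CPM and *Sfrp1* at 88.4 against 58.5. Against the same shares, of 21 BMP and TGF-beta genes 6 were lower (*Inhba*, *Nog*, *Tgfb1*, *Tgfbi*, *Ltbp1*, *Ltbp2*), 0 higher and the median was -0.34. *Ltbp2* was at 2.12 against 13.8 CPM and *Bmp4* at 22.1 against 14.7. Of 15 retinoic acid and hedgehog genes 1 was higher (*Aldh1a3*), 1 lower (*Cyp26b1*, the enzyme that breaks retinoic acid down, at 4.05 against 15.3 CPM) and the median was 0.02. Of 21 axon guidance genes 0 were higher and 3 lower (*Sema3d*, *Efna1*, *Plxdc2*), with a median of -0.23, and the receptor *Nrp1* was at 256 against 163 CPM.

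In the proximal library 5.2% of all genes at 10 CPM or more were called lower in members and 0.999% higher, so that calls over all genes leaned to lower levels. Of 14 homeobox factors 4 were 2-fold lower (*Six2*, *Dlx5*, *Irx3*, *Irx5*), 0 higher and the median log2 ratio was -0.36. *Irx3* was at 0.921 against 15.9 CPM and *Irx5* at 4.42 against 31.8, while *Meox2*, a regulator of limb muscle formation, was at 176 against 103 CPM and *Meox1* at 35.3 against 24.7. Among 8 Hox genes 1 was lower (*Hoxc6*, 3.04 against 12.3 CPM), 0 were higher and the median was -0.24. The distal library differed, with *Meis2* among 13 homeobox factors and *Hoxa5*, *Hoxa7*, *Hoxd8* and *Hoxd9* among 12 Hox genes at least 2-fold higher in members, and the homeobox factors *Prrx2*, *Msx1*, *Irx3* and *Irx5* and 4 Hox genes (*Hoxa13*, *Hoxd11*, *Hoxd12*, *Hoxd13*) at least 2-fold lower. Of all distal genes at 10 CPM or more 2.7% were called higher and 5.59% lower. In the proximal library, of 12 immediate early and stress genes, which dissociation can induce, 0 were higher and 3 lower (*Atf3*, *Hspa1a*, *Hspa1b*), with a median of -0.12. Of 4 adipogenic genes 2 were higher (*Lpl*, *Ebf2*) and 2 lower (*Cebpa*, *Fabp4*), and *Fabp4* of fat cells was at 5.16 against 34.5 CPM.

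In the distal library 44 cells met the rule. Per the methods the E16.5 forelimb pairs were divided into the proximal and distal samples, so the libraries come from the same forelimbs and the distal values are not an independent replicate. Of 3351 genes at 50 CPM or more, 72 (2.15%) were at least 2-fold higher and 128 (3.82%) lower in those cells than in the other 8403. All 20 genes named from the proximal library were higher distally as well, 17 of them at least 2-fold, and each of the 20 intervals lay above 1. *Tcf15* was at 56.9 against 6.30 CPM (fold 9.04, 7.03 to 11.5), *Cntfr* at 155 against 22.5 (6.90, 5.95 to 7.96), *Ngfr* at 114 against 23.5 (4.84, 4.07 to 5.71), *Serpine2* at 249 against 57.4 (4.34, 3.87 to 4.85) and *Nppc* at 67.1 against 19.3 (3.47, 2.77 to 4.30). *Socs3* (122 against 88.3), *Ebf2* (166 against 89.9) and *Iqgap2* (117 against 70.4) were below 2-fold. All 10 genes named as lower were also lower distally, and *Cytl1*, *Them5* and *Rab25* had 0 UMIs in the distal members against 61.8, 6.90 and 8.98 CPM in the other cells. *Igf1* was at 1105 against 309 CPM and basement membrane genes summed to 2900 against 1494 (fold 1.94, 1.88 to 2.01). Of 17 basement membrane genes 4 were at least 2-fold higher (*Col4a1*, *Lama2*, *Lamb1*, *Nid2*) and 2 lower (*Frem1*, *Npnt*), beside 2.7% and 5.59% of all genes at 10 CPM or more. The rule used the same 5 genes in both libraries, so what these cells share was partly fixed by it.

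**Figure D4:**
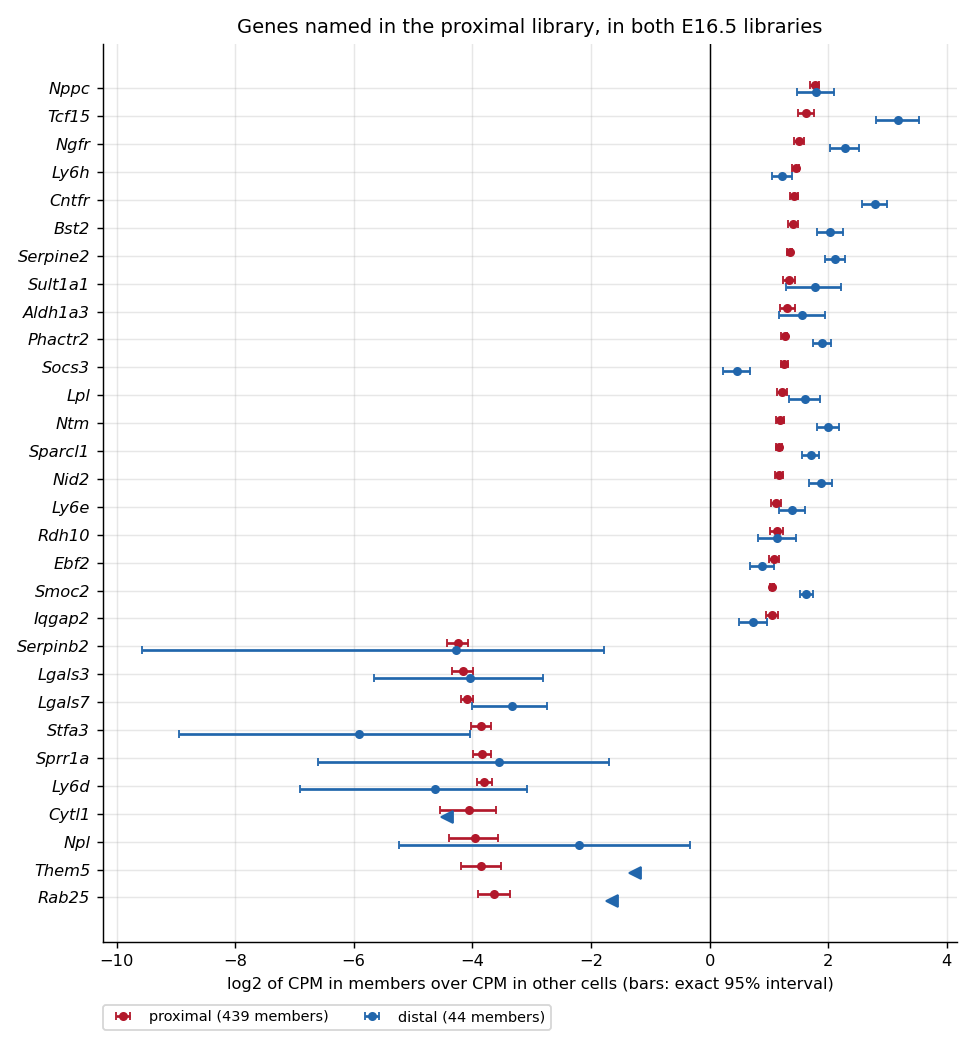
log2 of CPM in members over CPM in other cells for the 30 genes named from the proximal library, in the proximal (439 members) and the distal library (44 members), with exact 95% intervals. Left-pointing triangles mark the upper bound of the interval where distal members had 0 UMIs. All 20 upper genes lie to the right of 0 in both libraries.

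Members were also set beside the fibroblasts that carry *Pi16* or *Sfrp4* markers. Cells with at least 3 of 5 Pi16 fibroblast markers numbered 1274 and those with at least 3 of 4 Sfrp4 fibroblast markers 543. Of the members 20 (4.56% of members and 1.55% of the Pi16 class) and 11 (2.51% and 1.99%) met these definitions, and they were left out of those groups. Among all filtered cells of the library 11.6% met the Pi16 and 4.99% the Sfrp4 definition. Against the Pi16 class 58 of 3124 genes (1.86%) were at least 2-fold higher in members and 192 (6.15%) lower, and against the Sfrp4 class 50 of 3138 (1.59%) and 155 (4.94%). The 20 named genes were higher than in either class, 15 of them at least 2-fold against Pi16 and 16 against Sfrp4. *Tcf15* was at 50.3 CPM in members, 9.22 in the Pi16 and 6.56 in the Sfrp4 class, and *Ngfr* at 110, 13.4 and 16.1. General fibroblast markers summed to 13711 CPM in members, 29526 and 30388 in the 2 classes and 17911 in all other cells, and *Col1a1* stood at 3425, 8336 and 8772 CPM. Of the interstitial collagens at 10 CPM or more, 3 of 16 were at least 2-fold lower and 1 higher (*Col23a1*) against Pi16 (median log2 ratio -0.32), and 6 of 18 lower and 0 higher against Sfrp4 (median -0.77). Over all genes at that level 2.53% were called higher and 5.57% lower against Pi16, and 2.39% and 4.38% against Sfrp4. *Dpt*, a matrix gene shared by fibroblasts of many tissues, was at 48.5, 428 and 429 CPM and *Cd34* at 135, 388 and 335. Basement membrane genes ran the other way, at 1915, 1259 and 1266 CPM, as did *Igf1* at 1150, 542 and 879.

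Members with *Alx1* (124) and members with *Vtn* but no *Alx1* (156) were compared with each other. High Scrublet doublet scores were more frequent with *Alx1* (16.9%, 10.8 to 24.7%) than with *Vtn* (5.13%, 2.24 to 9.85%), and their part in these values was not tested. Of 2988 genes at 50 CPM or more, 19 (0.636%) were at least 2-fold higher with *Alx1* and 19 (0.636%) with *Vtn*. *Kera*, which encodes the proteoglycan keratocan of cornea and tendon, was at 142 CPM with *Alx1*, 10.9 with *Vtn* and 18.3 in the 159 members with neither (fold of the first over the second 13, 9.34 to 18.6). *Tnmd*, the tendon membrane protein tenomodulin, followed at 73.6, 15.5 and 38.9 CPM, *Cthrc1*, a secreted protein of matrix-producing cells, at 819, 216 and 463, and *C1ql3* at 53.2, 8.31 and 21.3. On the side of *Vtn* were *Gm13889* (4.21 with *Alx1*, 70.2 with *Vtn*, 1.98 with neither), *Smoc1* (6.61, 57.6 and 18.1), the activin antagonist follistatin *Fst* (47.2, 215 and 58.2), *Gap43*, a growth cone protein (31.6, 127 and 60.2), and the nuclear receptor *Nr2f2* (33.4, 94.5 and 33.7). Of the other tenocyte markers, *Scx* was at 20.7 with *Alx1* and 0.573 with *Vtn*, whereas *Thbs4* was at 111 and 158. The pericyte list summed to 106 and 155 CPM. Several genes named above for all members were at similar levels on both sides, with *Tcf15* at 47.8 and 53.9, *Cntfr* at 156 and 188, *Hic1* at 46.6 and 41.8 and *Igf1* at 1161 and 1121 CPM.

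Outside the members, the cells with *Alx1* and no *Vtn* (741) and those with *Vtn* and no *Alx1* (403) of the proximal library, which the rule did not pick, repeated part of this. *Kera* was at 189 against 14.3 CPM and *Gm13889* at 6.09 against 293, and in the distal library, over all cells of each kind, at 397 against 9.59 and 12.1 against 291. *Nr2f2* was at 20.7 against 130 and 58.6 against 231 CPM. *Ifitm3* turned its direction in both sets (337 against 413 and 313 against 611, after 402 against 140 in members), *Dkk2* did so as well (75.4 against 46.3 and 168 against 50.5, after 32.8 against 75.6), and *Gap43* did so in the distal library (149 against 56.2). The *Vtn* cells outside the members held pericyte markers at 980 CPM, against 155 in members with *Vtn* and 189 in all other cells, and 17.9% of them held 3 such markers after thinning against 1.28%. They also held erythroid transcripts at 1396 CPM, found in 2.48% of the cells, against 0.859 in members with *Vtn*. The part of these cells in the difference was not tested. In thinned cells 14.5% (8.84 to 22%) of members with *Alx1* and 23.7% (17.3 to 31.2%) of those with *Vtn* held 3 mitotic markers.

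**Figure D5:**
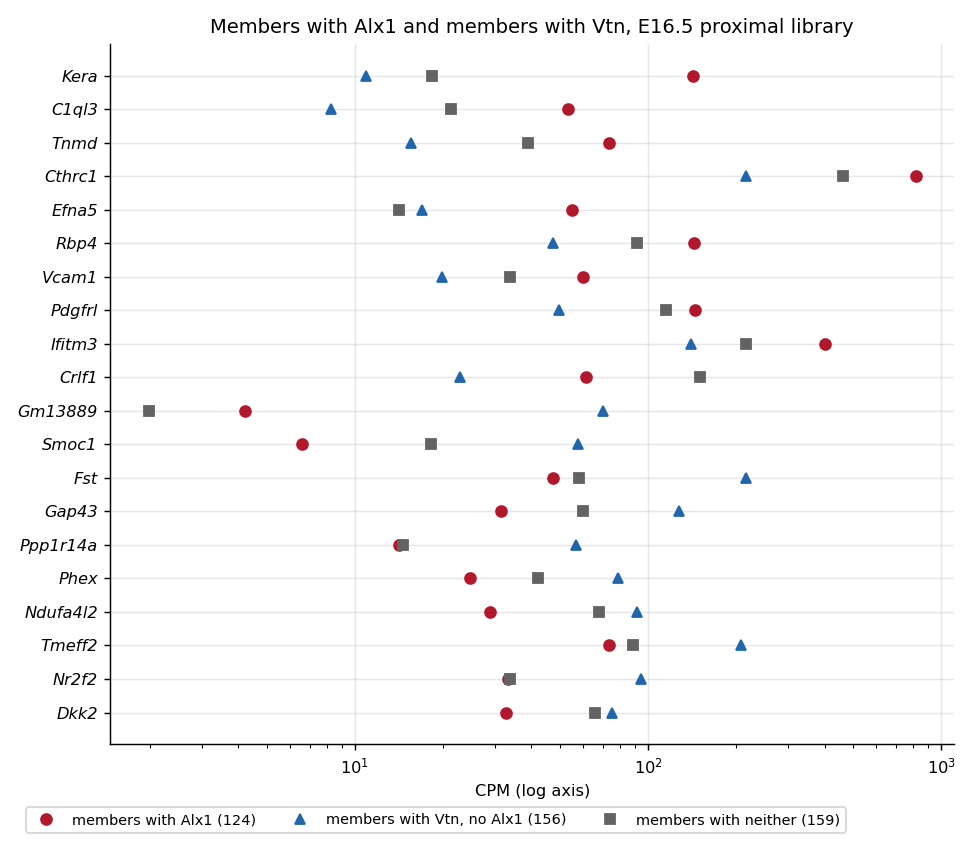
CPM (log axis) of the 10 genes with the highest and the 10 with the lowest ratio between members with *Alx1* (124 cells) and members with *Vtn* and no *Alx1* (156), beside members with neither (159), E16.5 proximal library. *Kera* is at 142, 10.9 and 18.3 CPM and *Gm13889* at 4.21, 70.2 and 1.98 CPM.

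Muscle fibre genes were higher in members, and in the proximal library the same genes were highest in deposited barcodes below the 3000 UMI minimum. These 486 barcodes held at least 502 UMIs each, and whether they are cells or free RNA was not tested. The 14 genes summed to 273 CPM in members and 105 in the other cells (fold 2.59, 2.50 to 2.69). Of 9 at 10 CPM or more 8 were at least 2-fold higher and 0 lower, with a median log2 ratio of 1.29. Of all genes at that level 0.999% were called higher and 5.2% lower, with a median of 0.02. *Mylpf*, a myosin light chain of fast fibres, was at 59.0 against 19.7 CPM and *Acta1*, skeletal actin, at 37.4 against 12.7. Counts were spread over cells, with a median of 4 UMIs per member and 1 per other cell, 0 UMIs in 12.5% and 47.2%, and at most 103 and 202. Only 5 members held 50 or more, with 344 of 2961 UMIs. Barcodes below 3000 UMIs, which the filter removed, were at 709 CPM, and *Mylpf* took 21.6% of the list's UMIs in members, 18.8% in the other cells and 23.9% in these barcodes. *Acta1* took 13.7, 12.1 and 18.6% and *Actc1* 9.63, 9.66 and 8.53%, whereas *Myl4* took 8.14, 12.3 and 4.82%. Other classes of the same library held less, with 66.6 CPM in Pi16, 47.3 in Sfrp4, 104 in tenocyte, 120 in pericyte, 92.4 in dermal, 37.4 in chondrocyte and 19.8 in keratinocyte cells, so the level differed between classes. Cells with *Alx1* that were not members held 243 CPM and those with 2 rule genes 238. Members with 4 rule genes were at 162 CPM (140 to 187). The part of free RNA in these values was not tested.

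Regulators of muscle precursors were at low levels in members, though higher in sum than in the other cells. *Pax3*, *Pax7*, *Myf5*, *Myod1*, *Myog* and *Mymk* summed to 10.3 CPM against 4.59 (fold 2.25, 1.83 to 2.73), *Myog* alone to 3.68 against 2.11 and *Pax7* to 0.368 against 0.25. Most of the sum in members thus came from the other listed regulators. In the deposited counts, which are deeper in members, a UMI of any regulator on this list was found in 18.7% of members and 4.53% of the other cells. No thinned member held 3 of the regulators (0 of 439, up to 0.837%). Without the members that held such a UMI the log2 ratio of the muscle fibre sum was 1.32, after 1.37 with them. Among the cells with the highest 8% of Scrublet doublet scores were 49 members (11.2%, 8.37 to 14.5%) and 7.87% of the other cells, and without such cells the log2 ratio was 1.43. In the distal library the muscle fibre genes summed to 98.3 against 34.7 CPM (fold 2.83, 2.36 to 3.38), and there the barcodes below 3000 UMIs were at 78.3 CPM (58.8 to 102).

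Mitotic genes were modestly higher in members. All 7 mitotic genes had intervals above 1, with *Top2a*, topoisomerase II of dividing cells, at 244 against 154 CPM and the kinase *Cdk1* at 159 against 103, and 0 passed 2-fold in either direction (median log2 ratio 0.42). Pooled counts give narrow intervals, which among 17 interstitial collagens also lay above 1 for 8 and below 1 for 7. In cells thinned to 3000 UMIs, 89 of 439 members (20.3%, 16.6 to 24.3%) and 13.6% (12.9 to 14.2%) of the other cells held at least 3 of the 7. Classes of the same library held 19.9% (keratinocyte), 19.4% (dermal) and 18.5% (pericyte), so the level in members was not particular to them. Tenocyte, Sfrp4, Pi16 and chondrocyte cells were at 14.4%, 13.3%, 11.9% and 11.8%. When the members with at least 3 pericyte, tenocyte or dermal markers were left out the share of members was 16.2% (11.6 to 21.8%), and when the rule itself was applied to thinned cells at 2 genes it was 13% (8.98 to 18.1%), so that these intervals reach the 13.6% of the other cells. The distal shares were 11.4% (3.79 to 24.6%) and 9.83%.

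The genes named in members took different courses over the sorted libraries. *Nppc* was at 1.56, 6.33, 14.2 and 20.5 CPM from E11.5 to E14.5 and at 48.1 in the proximal and 19.7 in the distal E16.5 library. *Sparcl1* went from 1.97, 2.85, 8.26 and 25.7 to 156 and 106, and *Sult1a1* from 0.190, 1.09, 2.53 and 5.12 to 32.5 and 9.56. *Tcf15* was highest early, at 36.6, 39.0, 14.7 and 8.57 CPM and then 17.8 and 6.70, and *Cntfr* was at 66.5, 73.8, 40.8 and 35.0 and then 68.6 and 23.6. *Ngfr* was at 25, 63.8, 38.4, 18.8, 42.2 and 24.3 in the same order. *Hic1* stayed between 22 and 38 CPM in the 6 sorted libraries and was at 0.702 and 0.741 in the whole limbs. These are levels over all cells of a library, in which fewer cells with a gene and less RNA per cell are not separated, and the kit changed between E13.5 and E14.5.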

How the data were processed

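Droplet libraries (10x Genomics 3′ kits) of embryonic forelimb cells were analysed. The authors aligned reads to a modified mm10 reference with Cell Ranger, and what they deposited is, for each barcode, the raw UMI counts of 28001 features. Per the file headers, 5 libraries were counted with version 3.0.2 and 1 with 6.0.1. The headers of the other 2 name none.

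Filtered cells had at least 3000 UMIs, the study's minimum, and at most 10% mitochondrial UMIs, and keratinocyte cells, which the authors removed, were kept as a reference class. The 6 sorted libraries held between 31500092 and 234893903 filtered UMIs. The members, the rule and all gene lists were chosen with earlier results of these data known. UMIs were summed over the cells of a group and given as CPM. Fold intervals are exact conditional and shares exact Clopper-Pearson at 95%, and ranking used the ratio of CPM + 1. Genes were called at 2-fold, among those at 50 CPM or more in the higher group for counts over all genes and at 10 CPM or more for lists. Counts of list genes with an interval above or below 1 are given without the share over all genes. Named were the 20 highest and 10 lowest ratios without rule, muscle fibre, haemoglobin, mitochondrial, sex-linked, added and (lowest only) Krt genes, plus list genes. Genes were named between members with *Alx1* and *Vtn*, and in the purine and matrix lists, after their values were seen. Marker classes are cells with at least 3 list markers that are no members, keratinocyte and chondrocyte cells after thinning. Thinning drew 3000 UMIs at random from each cell, once, with a fixed seed. Cells were not clustered. Doublets were kept, and Scrublet (scanpy 1.11.5) scores served as an alternative. The steps were tested on simulated data (Python 3.11.15, numpy 2.4.6, scipy 1.17.1, pandas 2.3.3). Gene positions are from GENCODE on GRCm38 and were found for 488 of 490 genes.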

Additional observations from a re-analysis of the deposited data

Results flagged for a closer look

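In 6 listed genes the members stood on opposite sides of the other cells in the proximal and the distal E16.5 library, beyond the exact 95% intervals of each. *Dpp4*, a surface peptidase of Pi16 fibroblasts, had a log2 ratio of -0.83 proximally (12.1 against 22.2 CPM) and 1.26 distally (23.4 against 9.21 CPM). The chemokine gene *Cxcl14* was at 0.09 (129 against 121 CPM) and -1.49 (56.9 against 161 CPM). The dorsoventral patterning gene *En1* was at 0.21 (23.4 against 20.1 CPM) and -1.15 (9.36 against 22 CPM). *Meis2*, a factor of the proximal limb, was at -0.41 (25.8 against 34.5 CPM) and 2.03 (38.2 against 8.63 CPM). *Hoxd8* was at -0.54 (12.3 against 18.2 CPM) and 1.15 (26.5 against 11.4 CPM), and *Hoxd9* at -0.25 (11.1 against 13.3 CPM) and 1.42 (32.8 against 11.7 CPM). Each library was sampled once, both from the same forelimb pairs, the distal values rest on 44 cells, and the difference between the libraries was not tested.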

How the results depend on the processing

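With 1 library per group nothing covers the spread between embryos. No paired analysis was possible because each E16.5 segment is 1 library, so the proximal and distal libraries, cut from the same forelimb pairs, form a single pair. The size of the group depends on depth and rule. With 3 genes required after thinning (14 cells), members were 0.126% of proximal and 0.0355% of distal cells, genes 2-fold higher and lower numbered 128 and 252, the muscle fibre log2 ratio was 2.27 and the mitotic share 28.6%. With 2 genes in deposited counts these were 16.6%, 3.37%, 40 genes higher and 1.58. With 4 genes they were 0.405%, 0.0592%, 0.53 for muscle fibre genes and 24.4% mitotic. With 2 genes after thinning, chosen after seeing the data, the share was 2.07%, the muscle fibre ratio 1.21 and the mitotic share 13%.

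The muscle fibre ratio was 1.43 without the highest Scrublet scores, 1.16 without keratinocyte and chondrocyte cells and 1.32 without members with a myogenic UMI, after 1.37. A minimum of 10 CPM gave 82 genes higher and 427 lower, after 24 and 123. Leaving out members with pericyte, tenocyte or dermal markers, also chosen after seeing the data, gave 37 genes higher and a mitotic share of 16.2%. With 2 of the other 4 genes *5330417C22Rik* was in 24.1% of cells. *Cytl1* reversed to 0.84 without keratinocyte and chondrocyte cells. A minimum of 5000 UMIs (24 and 122 genes), depth weighting (24 and 130) and a pseudocount of 10 CPM (18 and 111) kept the counts within 1.5 times. The cause of these changes was not tested.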
